A study of Mus musculus with 3 samples.

Results

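The 10 genes described here are the immediate early genes Fos, Fosb, Jun, Junb, Egr1, Atf3 and Ier2 and the heat shock genes Hspa1a, Hspa1b and Dnajb1, matched by symbol among 32285 genes measured in single cells of the mouse cochlea. Single cells were captured with the 10x Genomics 3′ chemistry from C57/B6 mice at postnatal day 14 (P14, 1 library) and postnatal day 28 (P28, 2 libraries), and the labels name no treatment or genotype beside the strain. Each library pooled 14 cochleae of 7 mice, so that no value can be traced to a single animal, and the cells were freed with a short collagenase digestion at room temperature and by trituration. Barcodes with 200 to 6000 genes and at most 15% mitochondrial UMIs (unique molecular identifiers, 1 per captured transcript) were kept, which left 1662, 5651 and 7065 cells for P14 replicate 1, P28 replicate 1 and P28 replicate 2. The median depth of these cells was 2477, 2421 and 2037 UMIs, and their median mitochondrial share was 6.24%, 10.0% and 10.8%. The libraries shared 4 to 10 cell barcodes pairwise.

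Immediate early genes are transcribed within minutes of a stimulus, without new protein synthesis, because their activators are already present in the cell. Fos, Fosb, Jun and Junb encode subunits of the dimeric transcription factor AP-1, Atf3 a related leucine zipper factor, Egr1 a zinc finger factor and Ier2 a nuclear regulator. Hspa1a and Hspa1b encode the inducible Hsp70 chaperone, and Dnajb1 encodes its Hsp40 partner, which hands unfolded proteins to Hsp70. The heat shock factor HSF1 drives all 3 heat shock genes when unfolded proteins accumulate. Both families are also known to be induced in tissue that is taken apart for cell suspensions.

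Promoter sequences from RefSeq (build GRCm38.p6) are shown for 4 members, because they carry the letters by which these families are read and because Hspa1a and Hspa1b are near copies of each other. Each is the 150 bases before the annotated start, on the gene's own strand. Capitals in Hspa1a (chr17:34972157-34972306, minus strand) and Hspa1b (chr17:34959239-34959388, minus strand) mark the heat shock element GAANNTTC. Capitals in Fos (chr12:85473740-85473889, plus strand) mark the core TGACG of the cyclic AMP element and the TATA box TATAAA, and in Junb (chr8:84978749-84978898, minus strand) they mark TGACG.
Hspa1a: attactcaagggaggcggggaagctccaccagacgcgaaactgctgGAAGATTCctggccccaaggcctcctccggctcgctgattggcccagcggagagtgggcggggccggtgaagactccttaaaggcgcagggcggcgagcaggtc
Hspa1b: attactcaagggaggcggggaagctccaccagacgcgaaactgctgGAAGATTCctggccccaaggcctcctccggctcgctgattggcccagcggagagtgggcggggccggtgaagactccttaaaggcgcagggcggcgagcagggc
Fos: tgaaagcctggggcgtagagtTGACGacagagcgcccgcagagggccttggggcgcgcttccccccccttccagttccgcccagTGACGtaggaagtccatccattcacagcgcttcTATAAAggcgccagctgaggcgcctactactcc
Junb: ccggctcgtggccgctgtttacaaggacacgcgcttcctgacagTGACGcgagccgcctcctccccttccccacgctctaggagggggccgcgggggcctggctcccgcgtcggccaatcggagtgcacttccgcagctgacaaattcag

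The promoter table held 8 of the 10 members, all but Egr1 and Ier2. Over the 250 bases before the start, on both strands, GAANNTTC was found in Hspa1a, Hspa1b and Jun and in 6.69% of all 32851 promoters. TGACG was found in Atf3, Dnajb1, Fos, Fosb and Junb and in 17.8% of all promoters, and TATAAA in Fos and in 12.4% of all promoters. The GC box GGGCGG was found in 7 of the 8 members and in 32.7% of all promoters. None of the 8 windows held a CArG box (1.47% of all promoters), TTCNNGAA (7.17%), TGACGTCA (1.55%) or the AP-1 site TGANTCA (6.75%). The windows of Hspa1a and Hspa1b were identical at 247 of 250 bases. Their longest annotated transcripts were identical at 93.6% of 2735 aligned bases but at 65.1% of 261 aligned bases over the last 300. How the reads of this pair were assigned was not tested, and each gene's own level is uncertain.

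All 10 genes were detected. Summed over the kept cells, the immediate early genes gave 6899 UMIs of Junb, 6317 of Jun, 5258 of Ier2, 4516 of Egr1, 3050 of Fos, 711 of Fosb and 145 of Atf3. The heat shock genes gave 1674 UMIs of Dnajb1, 1140 of Hspa1a and 785 of Hspa1b. Atf3 was thus too sparse for the test between cell classes, which 9 of the 10 members entered.

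Cell classes were rebuilt by clustering without the 10 genes and their pathway relatives, and were named from marker genes with the ending -like. UMIs were summed per class and library, and levels are given as CPM (UMIs per 1000000 UMIs of that class and library), which compares a gene across classes and not genes with each other. The 17 classes with 20 or more cells in at least 2 libraries gave 44 sums. Each was compared with the mean of the other classes in an edgeR quasi-likelihood fit with the library as a block and Benjamini-Hochberg adjustment over 12933 genes, and an adjusted p under 0.05 is called higher or lower. The p-values measure how class differences vary between these libraries, after shifts common to a library are removed. This spread is estimated over all classes together. With 1 library at P14 and a pool of animals in each library, it is not a spread between animals. For the 9 tested members in 17 classes, the fit called 37 pairs of gene and class higher and 24 lower. Over all 12933 genes in these classes it made 57334 calls in either direction. The share of all tested genes called in the same direction is given beside the first count of members in each class, and holds for the gene lists in that class too, since the classes differ in much of the transcriptome.

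**Figure D1:**
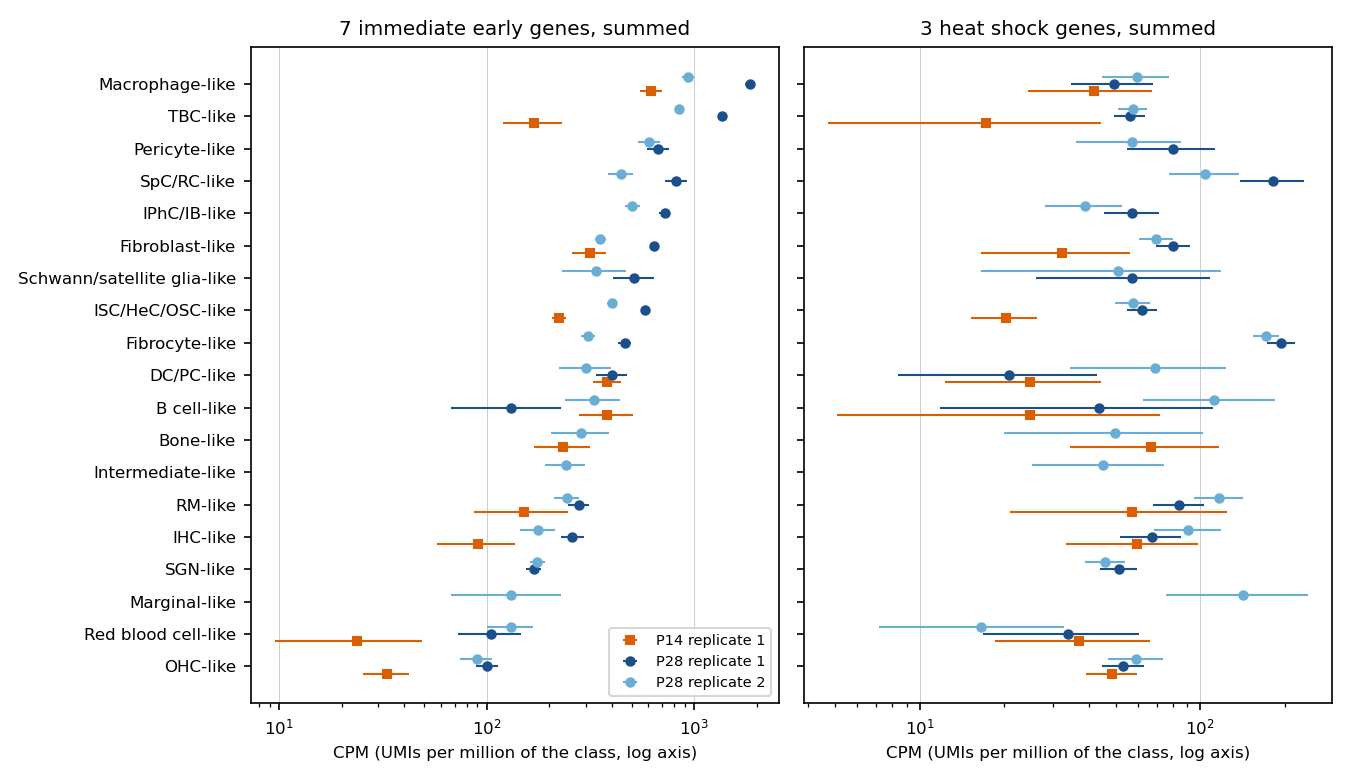
Summed CPM of the 7 immediate early genes (left) and the 3 heat shock genes (right) on log axes, by cell class (rows) and library (squares P14, circles P28), with exact 95% Poisson intervals that cover counting error only. Macrophage-like cells held the highest immediate early level in each library, with 1858 CPM in P28 replicate 1, while the heat shock level was highest in fibrocyte-like cells at P28 replicate 2 and replicate 1.

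Macrophage-like cells, named from C1qa, C1qb, C1qc, Csf1r, Cx3cr1, Aif1 and Mrc1, had the highest summed immediate early level in all 3 libraries. It was 621 CPM at P14, 1858 at P28 replicate 1 and 933 at P28 replicate 2. Fos stood at 51.7, 319 and 109 CPM, Jun at 261, 566 and 269, and Junb at 128, 383 and 220. Egr1 stood at 86.2, 234 and 165 CPM, and Ier2 at 66.5, 307 and 155. P28 replicate 1 was the highest of the 3 libraries for each of these 5 genes.

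In the fit 6 of the 9 tested members were called higher in macrophage-like cells, against 21.4% of all genes. Fos was 8.09-fold higher than the mean of the other classes (log2 3.02, SE 0.20, adjusted p = 8.0e-16), Jun 4.74-fold and Junb 4.28-fold. Egr1 was 3.76-fold, Ier2 3.24-fold and Fosb 2.68-fold higher, each in 3 of 3 libraries. No heat shock gene was called in this class by the edgeR fit, and none had an unadjusted p under 0.05. Without P28 replicate 1, 5 members were called, and without P28 replicate 2 all 6. Of the 114 macrophage-like cells at P14, 85 (74.6%) formed a cluster led by the neutrophil gene S100a8 beside C1q genes, with an S100a8 UMI in 10.6% of its cells. This cluster had 681 CPM of summed immediate early genes, and the other 29 cells had 555 CPM (95% Poisson interval 456 to 670), above the 382 CPM of the next class at P14.

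Tympanic border cell-like (TBC-like) cells, from the mesenchymal layer under the basilar membrane, were second at P28 but not at P14. Their summed immediate early level was 169 CPM at P14 (95% Poisson interval 120 to 231, 66 cells), 1356 at P28 replicate 1 and 845 at P28 replicate 2. Junb stood at 60.6, 466 and 261 CPM. Fos stood at 8.66, 223 and 112 CPM and Egr1 at 13.0, 225 and 208, where the P14 values rest on 2 and 3 UMIs.

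The fit called 5 members higher in TBC-like cells, against 24.3% of all genes. Fos was 5.77-fold higher (log2 2.53, SE 0.17, adjusted p = 1.0e-14), Junb 4.36-fold, Fosb 4.17-fold, Egr1 3.61-fold and Ier2 2.16-fold. Only Junb was higher than the mean of the other classes in 3 of 3 libraries. Fos, Fosb, Egr1 and Ier2 were higher in the 2 P28 libraries and lower at P14. Without either P28 library 3 members were called, and without the P14 library 7.

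Among the 38 other immediate early genes of the pathway list, 34 were tested. Macrophage-like cells had 17 called higher and 3 lower, and TBC-like cells had 22 higher and 2 lower, with median log2 differences of 0.89 and 0.99, beside 0.09 and 0.07 over all genes. The 3 with the largest rise in macrophage-like cells were Myc (log2 3.29), Cebpd (3.25) and Zfp36 (2.51), the last encoding tristetraprolin, which marks inflammatory transcripts for decay. Those in TBC-like cells were Klf2 (3.71), Ier3 (2.80) and Cebpd (2.66). Sgk1 (-2.63) and Gadd45b (-0.98) were the 2 called lower in TBC-like cells, and Id1 (-1.18), Klf9 (-1.11) and Id3 (-0.88) the 3 in macrophage-like cells.

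The list of feedback inhibitors holds phosphatases and other brakes on MAPK and NF-kB signalling. Of 12 tested genes, 8 were higher and 1 lower in macrophage-like cells, led by Dusp2 (log2 3.67), Dusp6 (3.62) and Dusp5 (3.02), with Spry2 lower (-1.18). In TBC-like cells 6 were higher, led by Dusp10 (2.25), Spry4 (2.23) and Tnfaip3 (1.78), and Spry2 was lower (-0.53). The relatives of AP-1 and EGR had 5 of 8 tested genes higher in macrophage-like cells, led by Batf3 (6.19), Egr3 (3.16) and Egr2 (3.12). In TBC-like cells Fosl2 (1.57) and Jund (0.53) were the 2 called higher, and no gene of this list was called lower in either class. Of 14 tested upstream factors, 5 were higher in macrophage-like and 6 in TBC-like cells, and none was lower. Of 17 tested inducible chaperones, 1 was higher and 5 lower in macrophage-like cells, and 2 were higher and 7 lower in TBC-like cells. Of all tested genes, 8.17% were lower in macrophage-like and 11% in TBC-like cells.

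By summed immediate early level at P28, the other mesenchymal and supporting classes described next lay between TBC-like cells and the hair cells. Single members did not all follow this order. Fibroblast-like cells had 5 members called higher, against 23.2% of all genes, with Egr1 2.84-fold, Hspa1a 2.54-fold, Fos 2.14-fold, Fosb 2.03-fold and Hspa1b 1.63-fold, and Dnajb1 1.52-fold lower (10.2% of all genes lower). Only 1 member was called higher there without P28 replicate 1 and 3 without P28 replicate 2. Pericyte-like cells, which were also led by Fst, Cemip and Moxd1, had Fos 3.24-fold and Junb 2.70-fold higher (10.9% of all genes higher), and neither was called without P28 replicate 2.

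Inner phalangeal and inner border cell-like (IPhC/IB-like) cells, the supporting cells around the inner hair cell, had 4 members higher (15.9% of all genes). Ier2 was 2.25-fold, Fos 1.92-fold, Fosb 1.87-fold and Jun 1.78-fold higher, and none of these was called without either P28 library, which left the class with 1 sum. Cells of the inner and outer sulcus and of Hensen's type (ISC/HeC/OSC-like) stood out by Ier2, at 102, 180 and 129 CPM (2.92-fold, adjusted p = 1.0e-08, higher in 3 of 3 libraries; 26.6% of all genes higher). Hspa1b (1.97-fold) and Junb (1.40-fold) were called there too, but Junb was below the unscaled mean of the other classes in 3 of 3 libraries, and the Junb call was kept in 5 of 15 alternatives and the Hspa1b call in 9 of 14, neither without either P28 library. Deiters' and pillar cell-like (DC/PC-like) cells had 1 member higher, Jun, at 155, 194 and 157 CPM (1.99-fold; 14.3% of all genes), a call lost without either P28 library.

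**Figure D2:**
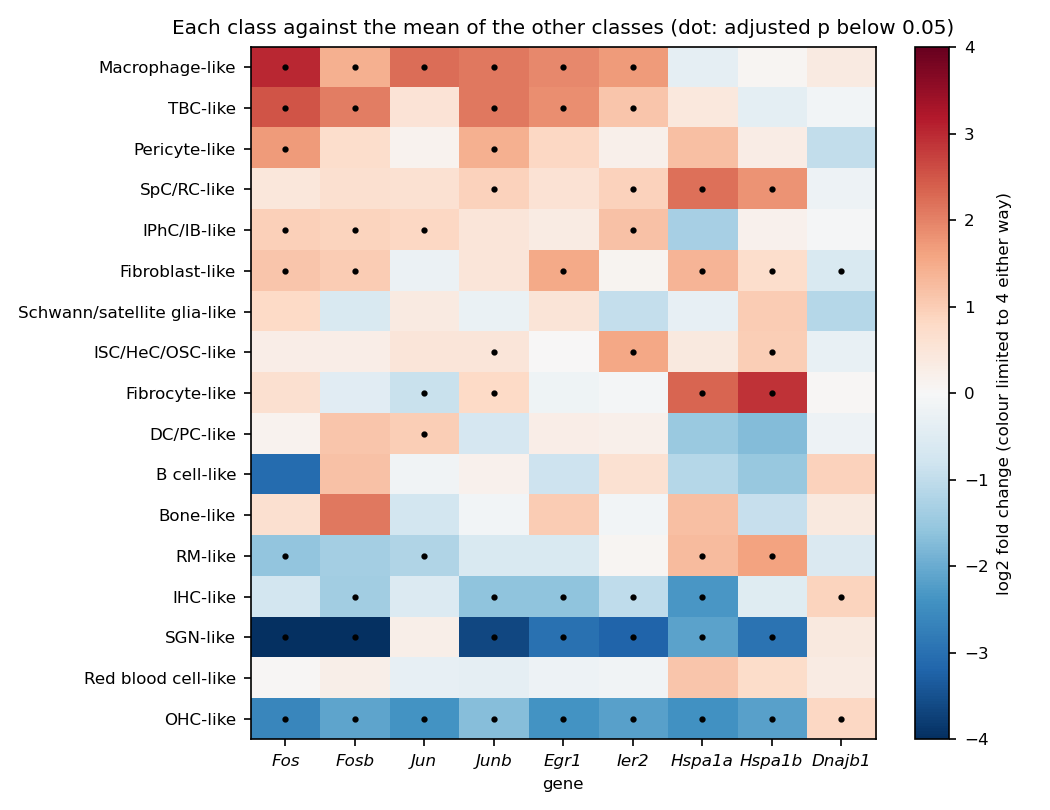
Log2 fold change of each tested member (columns) in each class (rows) against the mean of the other classes, with dots for adjusted p below 0.05. Macrophage-like and TBC-like rows hold 6 and 5 dots on higher immediate early genes, the outer hair cell-like row holds 8 dots on lower genes, and the dots on higher Hspa1a and Hspa1b lie in other rows.

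Hair cells held low levels of most members. In outer hair cell-like (OHC-like) cells, named from Slc26a5, Ocm and Ikzf2, the summed immediate early level was 33.0, 100.4 and 89.4 CPM for P14, P28 replicate 1 and P28 replicate 2. The fit called 8 of 9 members lower, against 22.4% of all genes, and each was lower in 3 of 3 libraries. Fos was 6.14-fold, Hspa1a 5.39-fold, Egr1 5.27-fold and Jun 5.24-fold lower. Hspa1b was 4.54-fold, Ier2 4.48-fold, Fosb 4.28-fold and Junb 3.27-fold lower. With the limits of 3000 genes and 15000 UMIs, the 4 calls of Fos, Fosb, Hspa1a and Hspa1b were lost. Over all alternatives the Fos call was kept in 13 of 15, Fosb in 10 of 14, and Hspa1a and Hspa1b in 9 of 14 each.

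Dnajb1 was the member that went the other way in hair cells. Its level was 47.4, 46.8 and 53.4 CPM among OHC-like cells (1.78-fold higher, log2 0.83, SE 0.17, adjusted p = 8.7e-05; 29.8% of all genes higher). In inner hair cell-like (IHC-like) cells it stood at 55.5, 55.7 and 74.0 CPM (1.87-fold higher, adjusted p = 7.5e-04; 22.7% of all genes higher). Both were higher in 3 of 3 libraries, and the IHC-like call was lost at the limits of 3000 genes and 15000 UMIs. In the fit with all libraries these were the 2 classes in which Dnajb1 was called higher. IHC-like cells had 5 members lower (16.7% of all genes), with Hspa1a 5.01-fold, Junb and Egr1 3.07-fold, Fosb 2.63-fold and Ier2 2.04-fold. Without either P28 library 2 members were called lower in this class, and the Fosb call was kept in 4 of 14 alternatives and the Hspa1a call in 10 of 14.

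Other chaperones differed in both directions in OHC-like cells. Of 17 tested inducible chaperones and co-chaperones, 9 were higher and 4 lower. Hspa4l (log2 3.23), Dnaja4 (3.17) and Hsp90aa1 (2.33) led the higher ones, and the small heat shock proteins Cryab (-3.06) and Hspb1 (-2.15) and the co-chaperone Bag3 (-1.37) the lower ones. Of 16 constitutive and organelle chaperones, 7 were higher, led by Dnajb6 (1.26), Hspa4 (1.09) and Dnajb11 (0.78), and Pdia4 (-1.56) was lower. Of the 34 other immediate early genes, 22 were lower, led by Klf4 (-3.03), Zfp36l1 (-2.47) and Id1 (-2.40). The 5 that were higher included Ppp1r15a (2.64), Sik1 (2.36) and Csrnp1 (1.16). The median of this list was -1.61, beside -0.05 over all genes.

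Spiral ganglion neuron-like (SGN-like) cells, captured at P28 alone, had 7 members lower (25.1% of all genes) but kept Jun. Their summed immediate early level was 169 and 175 CPM in the 2 libraries, and Jun made up 77.3% and 76.6% of these UMIs, with 130 and 134 CPM. Jun did not pass the test in this class with all libraries (log2 0.22). The members called higher there without the P14 library were Jun, Dnajb1 and Atf3. Junb was 12.6-fold, Ier2 9.29-fold and Egr1 7.84-fold lower. Fosb gave 0 and 1 UMIs, where the floor of 3 counts lies at 0.877 CPM in P28 replicate 1, and Fos gave 7 UMIs in each library. Atf3 stood at 9.06 and 10.8 CPM, and in macrophage-like cells it stood at 17.2, 17.3 and 4.32 CPM, while its median over 46 sums of class and library was 0. Without either P28 library 5 members were called lower, and without the P14 library 5 lower and 3 higher.

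Among the 17 tested classes, Hspa1a and Hspa1b were highest in fibrocyte-like and spindle and root cell-like (SpC/RC-like) cells. Fibrocyte-like cells had 95.6 and 63.5 CPM of Hspa1a and 69.8 and 75.0 CPM of Hspa1b in the 2 P28 libraries. Hspa1b was 7.35-fold higher (log2 2.88, SE 0.21, adjusted p = 1.0e-13) and Hspa1a 5.05-fold, with 18.6% of all genes higher. Of the 16 neighbouring pairs in the order of Hspa1b levels, 1 passed the test, that of fibrocyte-like against SpC/RC-like cells, the second of the tested classes (log2 1.03, adjusted p = 0.032). Junb was also higher (1.72-fold) and Jun lower (1.85-fold; 5.70% of all genes lower). Both heat shock calls held under every alternative in which these genes were tested. The Junb and Jun calls were each lost without either P28 library, where the class kept 1 sum that is assumed to vary like the other classes. Marginal-like cells, captured in P28 replicate 2 alone (21 cells) and not tested, had 109 CPM of Hspa1b (10 UMIs, 95% Poisson interval 52.2 to 200.3) and 10.9 CPM of Hspa1a (1 UMI).

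SpC/RC-like cells had 103 and 51.1 CPM of Hspa1a (4.58-fold higher) and 51.6 and 25.5 CPM of Hspa1b (3.44-fold), with P28 replicate 1 above P28 replicate 2 for both. Junb (1.88-fold) and Ier2 (1.92-fold) were called as well, against 10.1% of all genes, and 0 members were called without P28 replicate 1 and 1 without P28 replicate 2. Cells of Reissner's membrane (RM-like), the sheet between the scalae, had 28.5, 38.3 and 44.96 CPM of Hspa1a (2.41-fold) and 9.50, 29.9 and 40.2 CPM of Hspa1b (3.05-fold), against 16.2% of all genes, where the P14 values rest on 3 and 1 UMIs. In the same class Fos (3.01-fold) and Jun (2.31-fold) were lower (6.67% of all genes). Without P28 replicate 2 neither heat shock gene was called in RM-like cells, and without P28 replicate 1 Hspa1b alone.

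Of 17 tested inducible chaperones 6 were higher in fibrocyte-like cells, led by Hspb8 (log2 3.40), Hspb1 (2.84) and Bag3 (1.74), and Hspa4l was lower (-0.90). The median of this list was 0.27, beside 0.08 over all genes. Hspa9, the mitochondrial Hsp70 (1.35), and Trap1 (0.67) were the 2 constitutive and organelle chaperones called higher of 16, and the median of this list was -0.17. The inducible list had more members higher in SGN-like (12 of 17, with 2 lower, led by Hspa4l at 3.04, Hsph1 at 2.64 and Hsp90aa1 at 2.39), OHC-like (9) and IHC-like cells (7), where Hspa1a was lower. The shares of all genes called higher there were 34.6%, 29.8% and 22.7%.

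B cell-like, bone-like, red blood cell-like and Schwann/satellite glia-like cells had 0 members called in either direction by the edgeR fit, with 2, 1, 0 and 0 members at an unadjusted p under 0.05. The shares of all genes called in either direction were 19.7%, 7.80%, 10.4% and 5.98%. Red blood cell-like cells, whose UMIs are mostly haemoglobin, had 23.6, 104 and 130 CPM of summed immediate early genes.

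Few neighbours in the order of the classes passed a test of their difference. Of the 16 neighbouring pairs in the order of mean levels, 2 passed the test for Fosb and for Jun, 1 each for Egr1, Fos, Hspa1b, Ier2 and Junb, and 0 for Dnajb1 and Hspa1a (edgeR). Jun in macrophage-like cells stood above IPhC/IB-like cells, the next class, by 1.33 on the log2 scale (adjusted p = 0.0036). Fosb in TBC-like cells stood above IPhC/IB-like cells by 1.09 (adjusted p = 0.0074). Red blood cell-like cells stood above OHC-like cells, the next class, for Fos (log2 2.51, adjusted p = 0.013), Jun (1.95), Ier2 (1.89) and Egr1 (2.08). These are values of the fit, which rescales the sums. The mean levels lay closer together, at 7.21 ± 6.45 and 4.18 ± 2.38 CPM for Fos (SD, n = 3). Few Fos UMIs lie behind the red blood cell-like values.

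Over the 44 sums, log2(CPM + 10) of Fos and Egr1 had a Pearson correlation of 0.86, Fos and Junb 0.85, Junb and Ier2 0.83, and Hspa1a and Hspa1b 0.79. Hspa1a and Dnajb1 had -0.27. These are descriptions over sums that share libraries and classes. By the same measure, among 7582 genes with a mean of 20 CPM or more, the genes most like the summed immediate early members were Anapc11 (0.77), Zfp36l1 (0.76), Zfp36 (0.76), Selenop (0.75) and Rap1b (0.74). Those most like the summed heat shock members were Flcn (0.71), Oat (0.67), Bcat2 (0.67), Mrps6 (0.66) and Timm13 (0.66).

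Detection per cell was compared after thinning every cell to 1000 UMIs, which left out 363, 527 and 719 shallower cells. At least 1 immediate early UMI was found in 14.8% of P14 cells (exact binomial 95% interval 12.9 to 16.8), 29.3% of P28 replicate 1 cells (28.1 to 30.6) and 26.7% of P28 replicate 2 cells (25.6 to 27.8). Without thinning the shares were 31.7%, 46.5% and 42.9%. In macrophage-like cells the thinned shares were 41.3%, 63.3% and 49.4%. In OHC-like cells they were 3.08%, 4.66% and 8.10%, beside 2.04%, 3.85% and 8.09% of red blood cell-like cells (1 of 49, 3 of 78 and 14 of 173), a class that should hold little of these transcripts. Free RNA was not measured, and shares of this size are not read as expression. The unthinned median depth was 6510, 5251 and 3753 UMIs in OHC-like cells and 4982, 3648 and 2572 in red blood cell-like cells.

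Cells with a Fos UMI more often held the other immediate early genes. In P28 replicate 1, 43.8% of the 317 thinned cells with a Fos UMI also held Junb, against 10.0% of the 4807 cells without. Egr1 was held by 30.3% against 6.32%, Jun by 33.1% against 8.49%, Ier2 by 30.6% against 9.11%, and Fosb by 11.4% against 1.41%. In P28 replicate 2 the shares beside Fos (275 cells) were 27.3% against 8.22% for Junb, 28.4% against 5.77% for Egr1 and 19.3% against 8.02% for Jun. For Hspa1a the shares lay closer together. It was held by 3.15% of cells with Fos and 2.39% of cells without in P28 replicate 1, and by 3.27% and 2.42% in P28 replicate 2.

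**Figure D3:**
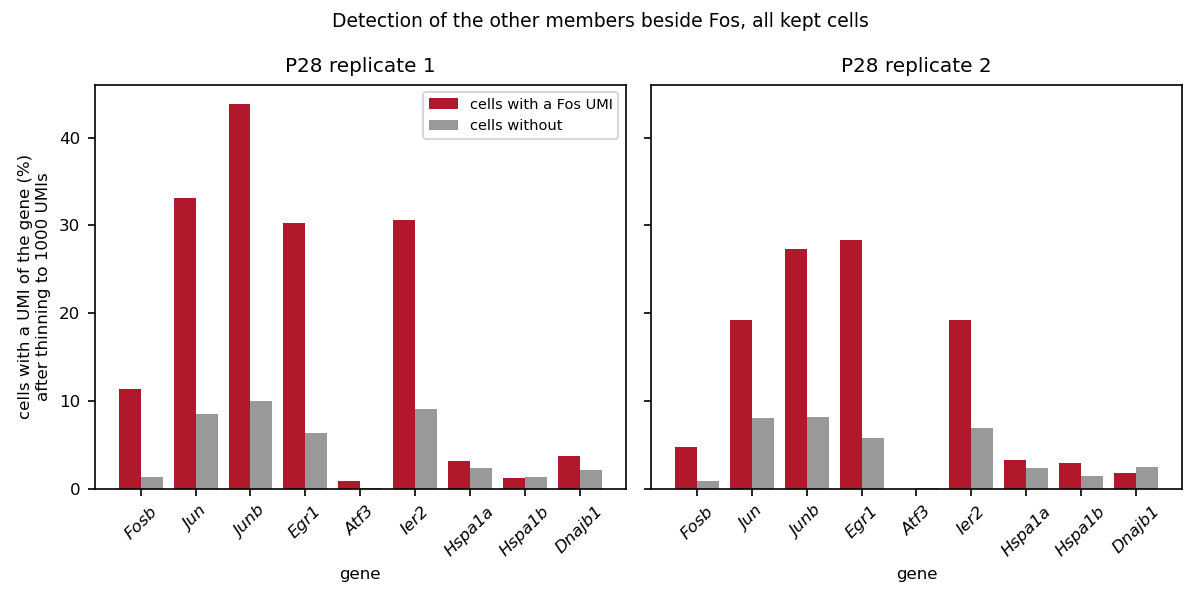
Share of cells (%, thinned to 1000 UMIs) that held a UMI of each other member, among cells with a Fos UMI (red) and without one (grey), in the 2 P28 libraries. Junb reached 43.8% beside Fos in P28 replicate 1 and 27.3% in P28 replicate 2, while Hspa1a stood at 3.15% and 3.27%.

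Classes differ in their level of all immediate early genes, so the shares were also taken within a class. Among TBC-like cells of P28 replicate 1, Junb was held by 58.1% of 129 cells with Fos and 17.9% of 758 cells without. In P28 replicate 2 it was held by 32.1% of 112 cells and 17.3% of 963 cells. Among macrophage-like cells Egr1 was held by 38.5% of cells with Fos and 10.7% without in P28 replicate 1, and by 38.2% and 9.80% in P28 replicate 2. These shares were not tested, because cells of a library are not replicates.

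With 1 library at P14 no test between the ages was possible, and age cannot be told apart from the library. Over all kept cells the summed immediate early level was 194 CPM at P14 (95% Poisson interval 185 to 205) and 529 ± 135 CPM at P28 (SD, n = 2), a ratio of 2.72. The summed heat shock level was 34.0 CPM (29.98 to 38.5) and 69.9 ± 0.1 CPM, a ratio of 2.05. The P14 interval lay below those of both P28 libraries for Fos (9.96 against 78.5 and 44.9 CPM), Fosb, Jun, Junb, Egr1, Ier2, Hspa1a and Hspa1b. Dnajb1 (28.3 against 29.9 and 31.2 CPM) and Atf3 (3.50 against 2.36 and 2.62 CPM) overlapped. The share of all genes with intervals apart in this way was not measured, so the separation is not read as particular to these members.

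The difference between the ages was not the same in every class. Of 10 classes in all 3 libraries, the summed immediate early interval at P14 lay below both P28 libraries in 6 (IHC-like, ISC/HeC/OSC-like, macrophage-like, OHC-like, red blood cell-like and TBC-like) and overlapped in 4. Red blood cell-like cells thus moved in the same direction, and the part of free RNA in the difference was not tested. The ratio of the P28 mean to P14 ranged from 0.61 in B cell-like to 6.52 in TBC-like cells. DC/PC-like cells had 382 CPM at P14 and 350 ± 69.7 at P28 (SD, n = 2). The summed heat shock interval at P14 lay below both P28 libraries in 3 of the same 10 classes and overlapped in 7. Hspa1a and Hspa1b each lay below in 1 class, and Dnajb1 lay above both P28 libraries in 1. Fibrocyte-like and SpC/RC-like cells, where Hspa1a and Hspa1b were highest among the tested classes, gave no sum at P14. The shares of all genes were not measured by class. As a mean over classes present in all libraries the ratio was 1.99 for immediate early and 1.73 for heat shock genes.

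The 2 P28 libraries differed as well. P28 replicate 1 had the higher summed immediate early level in 13 of 16 classes, with the counting intervals apart in 8, and a median ratio of 1.44. The interval lay below that of P28 replicate 2 in 1 class. The share of all genes with intervals apart between these libraries was not measured, so the difference is not read as particular to these members. The largest median ratio of a member was that of Fos (1.78), and Hspa1b was higher in P28 replicate 1 in 7 of 16 classes, with a median ratio of 0.99.

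To see whether the members went with a damaged-cell measure, the cells of each cluster were split at the median mitochondrial share within each library, and the sums of both parts were compared without mitochondrial genes. Of the 10 members, 5 were lower in the part with the higher share, against 1.70% of 14744 genes, each in 3 of 3 libraries. Egr1 was 1.501-fold lower (log2 -0.59, SE 0.08, adjusted p = 0.013), Fos 1.46-fold, Junb 1.34-fold, Ier2 1.33-fold and Jun 1.30-fold. No member was called higher by the edgeR fit or by DESeq2, and none had an unadjusted p under 0.05 in that direction in either (2.46% of all genes higher). Dnajb1 stood at 29.9 against 29.8 CPM at P14, 32.5 against 32.5 at P28 replicate 1 and 34.7 against 33.9 at P28 replicate 2.

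The part with the higher share was also shallower, with a median of 1929, 1951 and 1671 UMIs against 3255, 3031 and 2578. With every cell thinned to 1000 UMIs 0 members were called by edgeR, with 1 at an unadjusted p under 0.05. Without P28 replicate 1 or P28 replicate 2 the 5 calls were lost, with 5 members still lower at an unadjusted p under 0.05. Over all genes 35 were then higher and 44 lower without P28 replicate 1, and 5 higher and 11 lower without P28 replicate 2. Without the P14 library 6 members were called lower, beside 1426 lower and 1406 higher of 15153 genes. Of the pathway lists, Klf6 (log2 -0.36), Zfp36l1 (-0.38), Ier3 (-0.37), Id1 (-0.41), the feedback inhibitor Spry2 (-0.48) and the upstream factor Elk3 (-0.48) were lower, and the chaperone Hspa4l (0.33) was higher.

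**Figure D4:**
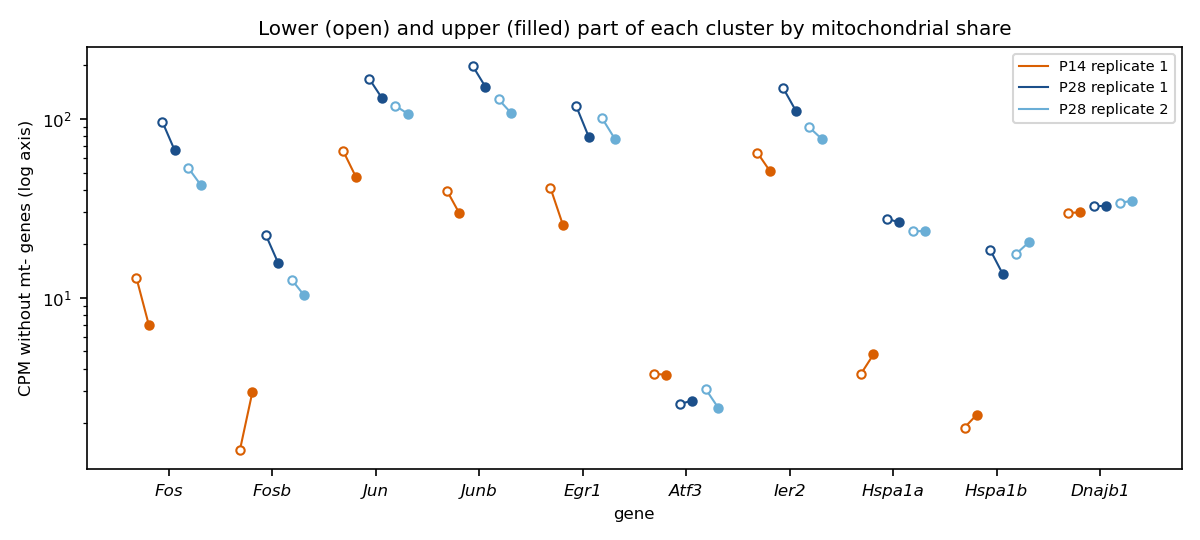
CPM without mitochondrial genes on a log axis for each member (x axis) in the parts of the clusters with the lower (open circles) and higher (filled circles) mitochondrial share, joined by library. The lines of Egr1, Fos, Junb, Ier2 and Jun fall in all 3 libraries, and those of Dnajb1 are nearly level, from 29.8 to 29.9 CPM at P14.

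Barcodes over the 15% limit, of which there were 493, 5899 and 10606, were compared as a whole with all kept cells, again with the library as a block and without mitochondrial genes. The barcodes were not matched by cluster here, and the part of class composition in the differences was not tested. Jun was 2.07-fold lower (log2 -1.05, adjusted p = 0.028) and Egr1 1.91-fold lower (adjusted p = 0.047), each in 3 of 3 libraries, and 2.07% of 14746 genes were lower and 0.943% higher. Both calls were lost without either P28 library. Without P14 8 members were lower and 1 higher, beside 2729 lower and 2526 higher of 15804 genes. Fos differed in direction between the ages, with 25.1 CPM over the limit and 10.5 CPM in the kept cells at P14, against 38.7 and 85.5 CPM in P28 replicate 1 and 30.6 and 49.1 CPM in P28 replicate 2. Hspa1b stood higher over the limit in 3 of 3 libraries but did not pass the test (log2 0.43, adjusted p = 0.18). At P14 it was nearly level, at 2.10 against 2.00 CPM, and few UMIs lie behind these values.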

How the data were processed

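The deposited gene by barcode matrices hold raw UMI counts, which per the labels the submitters made with Cell Ranger 6.0.1 on the mm10 build, while the file headers name version 5.0.1. These counts were not normalized, and no cell annotation was used here. The members and gene lists were chosen with earlier results of these data known. Kept cells were clustered in Seurat 5.3.0 (2000 variable genes without members and pathway genes, 30 components, resolution 1; P14 alone, P28 libraries integrated). A cluster was named when 3 or more fixed markers were detected in 5% of its cells and lay 1 log2 unit above the median of the clusters. For 2 classes, red blood cells and Schwann cells, a stricter marker rule was added after the leading genes were seen, and its genes are not reported here. No doublets were removed. Of the P14 cells, 238 stayed unnamed. Summed counts were tested with edgeR 4.0.16 (TMM, filterByExpr), with DESeq2 1.42.0 as an alternative. Named genes were all members, the 3 called genes of largest change per list and direction in the lists described, and the 5 most alike genes. On simulated counts for macrophage-like cells, 81.0% of 200 2-fold changes were recovered. In the mitochondrial split 43.0% of 2-fold and 1.5% of 1.5-fold changes were recovered, and over the mitochondrial limit 46% and 0.5%. The simulated counts held no differences between libraries, unlike the data. Their spread was set in advance and not taken from these sums, so the rates may not hold for the tests here. Replicate numbers name libraries, and sums from 1 library are paired by it, with correlations of their deviations of 0.27 to 0.95. Intervals and floors of 3 counts cover counting error only.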

Additional observations from a re-analysis of the deposited data

Results flagged for a closer look

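In 7 cases every P28 library differed from the level of the other cells of its library in the direction opposite to P14. All members and their summed levels were screened in every class with 3 libraries and over the mitochondrial limit. A case was flagged where the 95% Poisson interval of each library excluded the level of the other cells. The flagged sums include flagged members, so the cases are not separate. The same screen was not run over all genes, so the cases are not read as particular to these members. These differences were not tested, and with 1 P14 library they have no replicate check. The other cells also differ in makeup between the ages. TBC-like cells were 66 of 1662 kept cells at P14, 938 of 5651 in P28 replicate 1 and 1216 of 7065 in P28 replicate 2. OHC-like cells were 277, 367 and 284 of these. The part of this makeup in the reversals was not tested. In ISC/HeC/OSC-like cells Jun stood at 46.3 CPM at P14 against 61.1 in the other cells, but at 162 against 137 and 119 against 102 at P28. Atf3, which gave 145 UMIs over all kept cells, rests on few UMIs in the same class. It stood there at 5.79 CPM against 2.14 at P14, and at 0.228 against 2.82 and 0.900 against 2.90 at P28. The summed immediate early level in this class was 223 CPM against 177 at P14, and 582 against 634 and 401 against 439 at P28. In DC/PC-like cells Egr1 stood at 80.9 CPM against 29.9 at P14, and at 32.8 against 95.3 and 37.6 against 83.9 at P28. Ier2 in this class stood at 78.7 CPM against 54.7 at P14, and at 74.6 against 124 and 31.4 against 77.7 at P28. The summed immediate early level of DC/PC-like cells was 382 CPM against 182 at P14, and 400 against 628 and 301 against 434 at P28. In TBC-like cells Ier2 stood at 13.0 CPM (3 UMIs) against 57.5 at P14, and at 211 against 105 and 121 against 66.6 at P28.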

How the results depend on the processing

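Of the 61 calls of a member in a class, 19 held under every alternative in which they were tested. All but the left-out libraries kept 27, and none changed direction. With at least 10 UMIs required in 50% of the sums, the 37 higher pairs became 24. Fosb, Hspa1a and Hspa1b did not enter that fit, and of the calls still tested 39 stayed and 1 was lost. The 24 lower pairs became 10 at the limits of 3000 genes and 15000 UMIs and 39 against all other cells of the library. Leaving out 1 library gave 17 to 53 higher pairs, 12 to 24 lower pairs and 23477 to 67816 calls over all genes (57334 with all). Without the library block there were 25 higher and 18 lower pairs and 48282 calls. In the mitochondrial split (5 members lower, 613 genes called), DESeq2 called 363 genes and the fit without a filter 1230. Without the library block 0 members and 0 genes were called by edgeR (0 and 103 at an unadjusted p under 0.05), and thinned cells gave 0 members and 45 genes. Leaving out 1 library gave 0 to 6 members and 16 to 2832 genes. Over the mitochondrial limit (2 members lower, 444 genes called), the fit without a filter called 1026 genes and barcodes of 15 to 30% 946. Without the block edgeR called 0 members and 0 genes (2 and 635 unadjusted), and leaving out 1 library gave 0 to 1 members higher, 0 to 8 lower and 152 to 5255 genes. The immediate early age ratio of 2.72 became 2.97 without mitochondrial, ribosomal and haemoglobin UMIs, 2.58 at 3000 genes and 15000 UMIs and 1.99 as a mean over classes. With 1 P28 library left out, an alternative chosen after seeing the data, it was 2.23 to 3.21. The heat shock ratio of 2.05 became 1.73 as a mean over classes. The cause of these shifts was not tested. No paired analysis between the ages was possible, because replicate numbers name libraries and not matched pools of mice.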
